A study of Mus musculus with 6 samples.

Results

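Paneth cells sit at the base of the crypts of the small intestine and secrete antimicrobial proteins into the lumen. The genes described here encode such products. They were chosen by name from the deposited table of expression values. Of 10 symbols, 9 were in the table of 22611 genes, namely Defa24, Defa17, Defa3, Defa5, Defa22, Lyz1, Mmp7, Itln1 and Ang4, and all 9 passed the filter on low values that left 10596 genes to be tested. The tenth, Mptx2, was not among the symbols of the table, but the RefSeq gene list gives Gm11062 as an older name of Mptx2, and the row of that name is described separately. The samples were duodenal epithelium of 3 WT and 3 Esrra-/- littermates, 1 library for each mouse, after about 8 weeks of high-fat feeding. Mice of both sexes were used in the study, and their age is not given in the sources used here. Esrra encodes the orphan nuclear receptor ESRRA, and Esrra-/- mice are germline mutants, with the gene mutated in every tissue and not in the epithelium alone. The epithelium was released from the duodenum with EDTA and by mechanical force. The labels call the material duodenal epithelium and name no separation of crypts from villi for these libraries. The values are FPKM, a count of fragments divided by transcript length and by library size.

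The alpha-defensins are small cationic peptides stored in Paneth cell granules as precursors, which the matrix metalloproteinase encoded by Mmp7 cuts into active peptides in the mouse. Lyz1 encodes the lysozyme of Paneth cells, which breaks down bacterial cell walls. Ang4 encodes an angiogenin of the ribonuclease family with antimicrobial activity, and Itln1 encodes intelectin, a lectin that binds sugars of microbial surfaces. Paneth cells need Wnt signalling to form, and they lie between the stem cells of the crypt, to which they supply growth signals.

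The targeted gene, Esrra, had 49.4, 73.5 and 104 FPKM in WT and 10.4, 9.42 and 8.72 FPKM in Esrra-/-, a log2 fold change of −2.92 (limma, adjusted p = 0.0215). The libraries differed in more than genotype. The summed FPKM of Y-linked transcripts was 27.3 to 46.7 in replicates 1 and 2 of both genotypes, 0.0487 in WT replicate 3 and 0.222 in Esrra-/- replicate 3, so the third library of each genotype lacked Y-linked transcripts above a trace.

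The 5 alpha-defensin members lie in 1 gene cluster on chromosome 8 of mm9, between 22301956 and 22845943 on the plus strand, within 544 kb. The cluster as a whole held 26 rows of the table over 806 kb. The coding sequences of the 5 members are 282 bases each in GENCODE M1, read from the NCBIM37 (mm9) transcripts. They are shown because the similarity between them sets how well fragments can be told apart. Capitals mark the 71 positions at which the 5 sequences are not all the same.
Defa24: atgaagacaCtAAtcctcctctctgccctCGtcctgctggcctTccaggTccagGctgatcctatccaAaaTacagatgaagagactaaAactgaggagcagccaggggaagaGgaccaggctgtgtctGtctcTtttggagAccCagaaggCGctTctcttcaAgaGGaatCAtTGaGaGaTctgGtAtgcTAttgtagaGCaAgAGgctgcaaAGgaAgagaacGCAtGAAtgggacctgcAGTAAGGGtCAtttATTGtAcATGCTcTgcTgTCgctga
Defa3 and Defa17: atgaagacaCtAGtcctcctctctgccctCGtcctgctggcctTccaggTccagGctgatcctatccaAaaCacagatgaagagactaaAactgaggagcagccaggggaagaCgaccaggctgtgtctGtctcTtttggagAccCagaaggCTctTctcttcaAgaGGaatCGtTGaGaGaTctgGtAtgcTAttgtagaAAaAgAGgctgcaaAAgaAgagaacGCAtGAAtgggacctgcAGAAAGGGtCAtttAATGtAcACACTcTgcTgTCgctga
Defa5: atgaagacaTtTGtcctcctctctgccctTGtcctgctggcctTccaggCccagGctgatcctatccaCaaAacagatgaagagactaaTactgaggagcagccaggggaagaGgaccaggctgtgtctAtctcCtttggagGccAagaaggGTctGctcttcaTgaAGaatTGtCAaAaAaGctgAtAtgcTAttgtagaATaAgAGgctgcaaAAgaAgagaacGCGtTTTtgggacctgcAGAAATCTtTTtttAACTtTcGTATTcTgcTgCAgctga
Defa22: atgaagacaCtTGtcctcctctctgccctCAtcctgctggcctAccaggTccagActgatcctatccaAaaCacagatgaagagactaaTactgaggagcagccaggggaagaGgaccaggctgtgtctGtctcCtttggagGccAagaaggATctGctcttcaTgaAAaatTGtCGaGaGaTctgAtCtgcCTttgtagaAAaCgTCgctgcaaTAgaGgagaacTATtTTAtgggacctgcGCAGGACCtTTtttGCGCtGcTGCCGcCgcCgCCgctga
Defa3 and Defa17 have the same coding sequence, with 282 of 282 bases identical. Defa24 differs from Defa3 at 12 bases, while Defa3 and Defa5 share 85.5% of aligned bases and Defa5 and Defa22 share 83.3%. Of the first 141 bases, which encode the start of the precursor, 14 vary among the 5 genes, and of the last 141, which encode the end of the precursor with the mature peptide, 57 vary.

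The authors assigned fragments to transcripts with kallisto, which matches short words of sequence, 31 bases long by default, so words found in several transcripts do not by themselves tell which gene a fragment came from. Over the GENCODE M1 protein-coding transcripts, 43.4% of the words of Defa24 occurred in no other gene. For Defa17 the share was 6.81%, for Defa3 7.37% and for Defa22 9.51%, and for Defa5 it was 0.289%, or 1 word of 346. Defa17 shared 92.4% of its words with Defa3, Defa22 shared 83.8% with Defa21, and Defa5 shared 81.8% with Gm15315. The values of these rows are therefore uncertain as values of single genes. The other members were more distinct, with 65.8% of words unique for Lyz1, which shared the rest with Lyz2, 87.6% for Ang4 and 96.2% for Itln1, and Mmp7 shared no word with another gene. The annotation that the authors quantified against is not given in the sources used here, so these shares describe GENCODE M1.

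**Figure D1:**
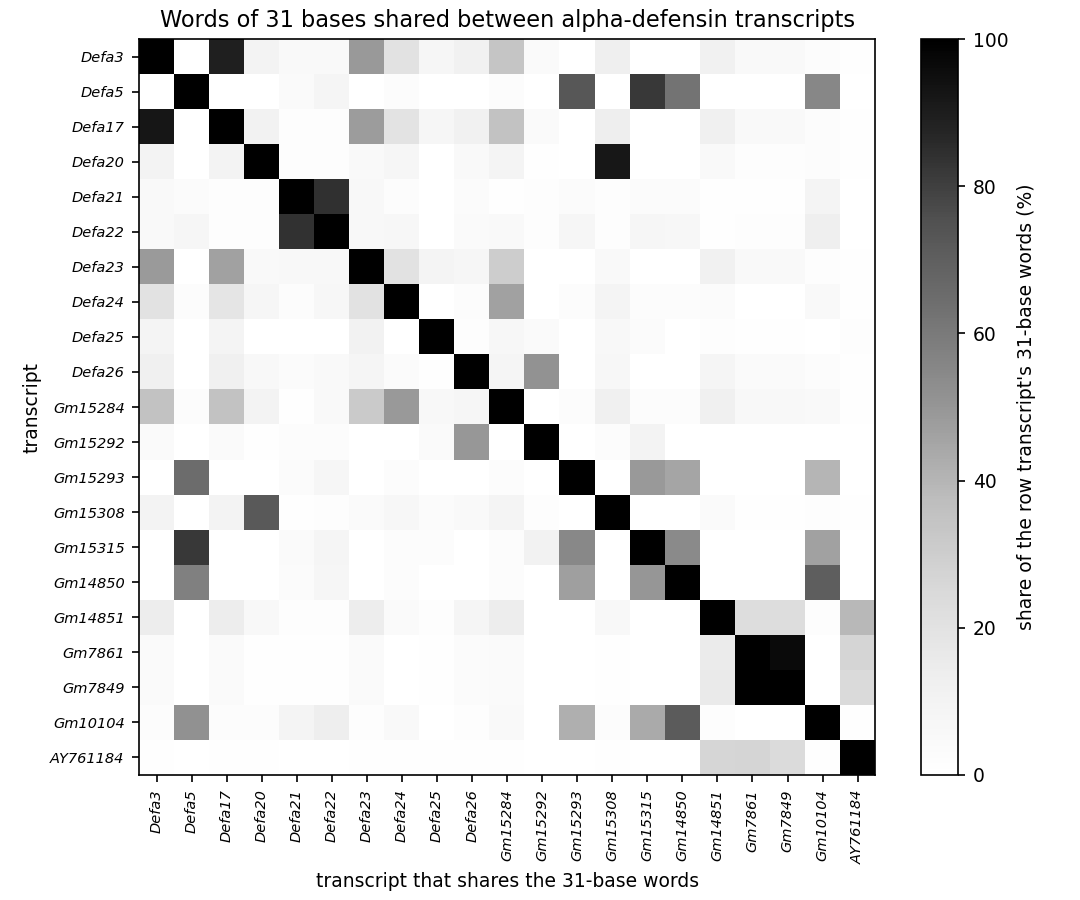
Words of 31 bases shared between transcripts of alpha-defensin rows tested. Each cell gives the percent of the row transcript's words that also occur in the column transcript, from 0 (white) to 100 (black). Dark cells off the diagonal include those that join Defa3 with Defa17, Defa20 with Gm15308, Defa21 with Defa22, Gm7849 with Gm7861, and Gm14850 with Gm10104. They also include those that join Defa5 with Gm15293, Gm15315, Gm14850 and Gm10104.

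Every member had a lower mean in Esrra-/- than in WT, and 5 of the 9 passed the thresholds for a lower call: Defa24, Defa17, Defa3, Lyz1 and Ang4. A call needed an unadjusted p under 0.05 in limma, fitted to log2(FPKM + 0.1) over all genes tested, and a log2 fold change beyond 0.58 in size. The same rule called 3.28% of all genes tested lower, and 1.35% higher. None of the members was called higher. The median log2 fold change of the members, Esrra-/- over WT, was −1.48, and that of all genes tested was 0.03. With Benjamini-Hochberg adjustment over all genes, 0 members had an adjusted p under 0.05 in limma (5 had an unadjusted p under 0.05, against 10.8% of all genes tested). Over all genes 0.0378% had an adjusted p under 0.05. In bulk tissue, fewer Paneth cells and less RNA of these genes per cell cannot be told apart.

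Defa24 was the most abundant member, with 4426, 8230 and 4022 FPKM in WT and 2459, 3399 and 805 FPKM in Esrra-/-, each in the order of replicates 1 to 3. No Esrra-/- library reached the lowest WT library. The log2 fold change was −1.48 (standard error [SE] 0.57, limma adjusted p = 0.422). Defa17 had 2426, 3943 and 2353 FPKM in WT and 1129, 1565 and 363 FPKM in Esrra-/-, again with no overlap. Its log2 fold change of −1.71 (SE 0.54, limma adjusted p = 0.359) was the most negative of the 9 members. Defa3, identical to it in coding sequence, had 2546, 4721 and 2139 FPKM in WT and 1319, 2107 and 478 FPKM in Esrra-/-, a log2 fold change of −1.43 (SE 0.57, limma adjusted p = 0.433).

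Neither Defa5 nor Defa22 was called. Defa5 had 817, 1648 and 395 FPKM in WT and 432, 625 and 91.7 FPKM in Esrra-/-. WT replicate 3 lay below Esrra-/- replicates 1 and 2, so the genotypes overlapped. Its log2 fold change was −1.48 with a 95% confidence interval from −3.31 to 0.36. Defa22 had 1186, 3775 and 673 FPKM in WT and 801, 1461 and 111 FPKM in Esrra-/-, a 33.9-fold range over the 6 libraries and the widest of the members. Its genotypes overlapped as well, and its log2 fold change of −1.51 had a 95% confidence interval from −3.86 to 0.85.

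Lyz1 (chromosome 10, 116724852 to 116729924, minus strand) had 2893, 5286 and 2407 FPKM in WT and 1538, 2264 and 466 FPKM in Esrra-/-. The genotypes did not overlap, and the log2 fold change was −1.501 (SE 0.60, limma adjusted p = 0.436). Ang4 (chromosome 14, 52383553 to 52393265, minus strand) had 570, 869 and 392 FPKM in WT and 326, 391 and 87.4 FPKM in Esrra-/-. The lowest WT library, at 392.1 FPKM, and the highest Esrra-/- library, at 390.9 FPKM, were only just apart, with a log2 fold change of −1.37 (SE 0.58, limma adjusted p = 0.457).

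Mmp7 and Itln1 had smaller fold changes than the other members and were not called. Mmp7 (chromosome 9, 7692086 to 7699585, plus strand) had 105, 121 and 48.9 FPKM in WT and 57.5, 63.1 and 19.2 FPKM in Esrra-/-, a log2 fold change of −1.05 (SE 0.52, limma adjusted p = 0.520). Itln1 (chromosome 1, 173448253 to 173465425, minus strand) had 801, 1425 and 579 FPKM in WT and 508, 727 and 176 FPKM in Esrra-/-, a log2 fold change of −1.12 (SE 0.56, limma adjusted p = 0.528). For both genes WT replicate 3 lay within the range of the Esrra-/- libraries. Gm11062, the row that RefSeq pairs with Mptx2, encodes a pentraxin and was named after its values were seen. It had 454, 723 and 149 FPKM in WT and 116, 330 and 33.7 FPKM in Esrra-/-, with an overlap between the genotypes and a log2 fold change of −1.75 (SE 0.87, limma adjusted p = 0.528).

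**Figure D2:**
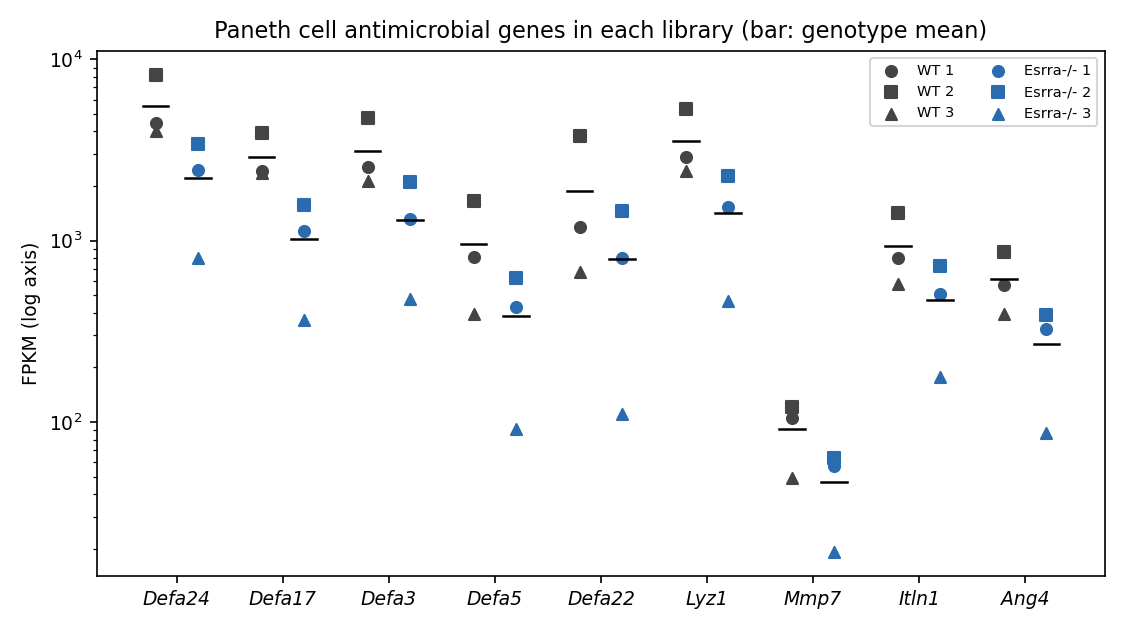
FPKM of the 9 Paneth cell antimicrobial genes on a log axis. Grey points are the 3 WT libraries, blue points the 3 Esrra-/- libraries, the marker gives the replicate number and each bar is the mean of a genotype. WT replicate 2 (grey square) is the highest and Esrra-/- replicate 3 (blue triangle) the lowest of the 6 libraries for all 9 genes.

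The libraries at both ends were the same for every member. WT replicate 2 was the highest and Esrra-/- replicate 3 the lowest of the 6 libraries for 9 of 9 members, and for 22 of 22 alpha-defensin rows tested. The 9 members together made up 2.13%, 3.67% and 1.30% of the summed FPKM of the WT libraries and 1.15%, 1.78% and 0.288% of that of the Esrra-/- libraries. WT replicate 3 thus lay below Esrra-/- replicate 2 on this measure. Without Esrra-/- replicate 3 the median log2 fold change of the members was −0.70 and 1 member was called lower, and without WT replicate 2 it was −1.08 and 1 member was called. The other libraries mattered too, with 1 member called without WT replicate 1, 7 without WT replicate 3, 3 without Esrra-/- replicate 1 and 8 without Esrra-/- replicate 2. Of all genes tested, 2.38% to 5.05% were called lower in these 6 fits. With both WT replicate 2 and Esrra-/- replicate 3 left out, an alternative chosen after the data had been seen, the median was −0.40 and 1 member was called, against 3.44% of all genes called lower. Each time that 1 member was called it was Defa17, whose log2 fold change was −1.09 without Esrra-/- replicate 3, −1.47 without WT replicate 2 and −0.85 without both. Defa22 had a log2 fold change of 0.28 without both.

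The genotypes were also compared among libraries alike in Y-linked transcripts. In the pair of libraries without them, Esrra-/- replicate 3 held 15.5% of the WT replicate 3 level for Defa17, 19.4% for Lyz1, 22.3% for Defa3, 30.4% for Itln1 and 39.3% for Mmp7. This comparison has 1 library per genotype and no test. Among the 4 libraries with Y-linked transcripts the Esrra-/- mean was 42.3% of the WT mean for Defa17, 46.5% for Lyz1, 47.1% for Defa3, 55.5% for Itln1 and 53.2% for Mmp7. Both Esrra-/- values lay below both WT values for every member other than Defa22, that is for 8 of 9, where this held for 22.6% of all genes tested in these libraries. Limma on these 4 libraries alone called 7 of the 9 members lower, with Defa22 and Itln1 not called, against 3.24% of all genes. With the Y-linked transcripts as a covariate over all 6 libraries 9 of 9 were called lower, against 3.9% of all genes, and the smallest adjusted p was 0.0461, for Mmp7.

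**Figure D3:**
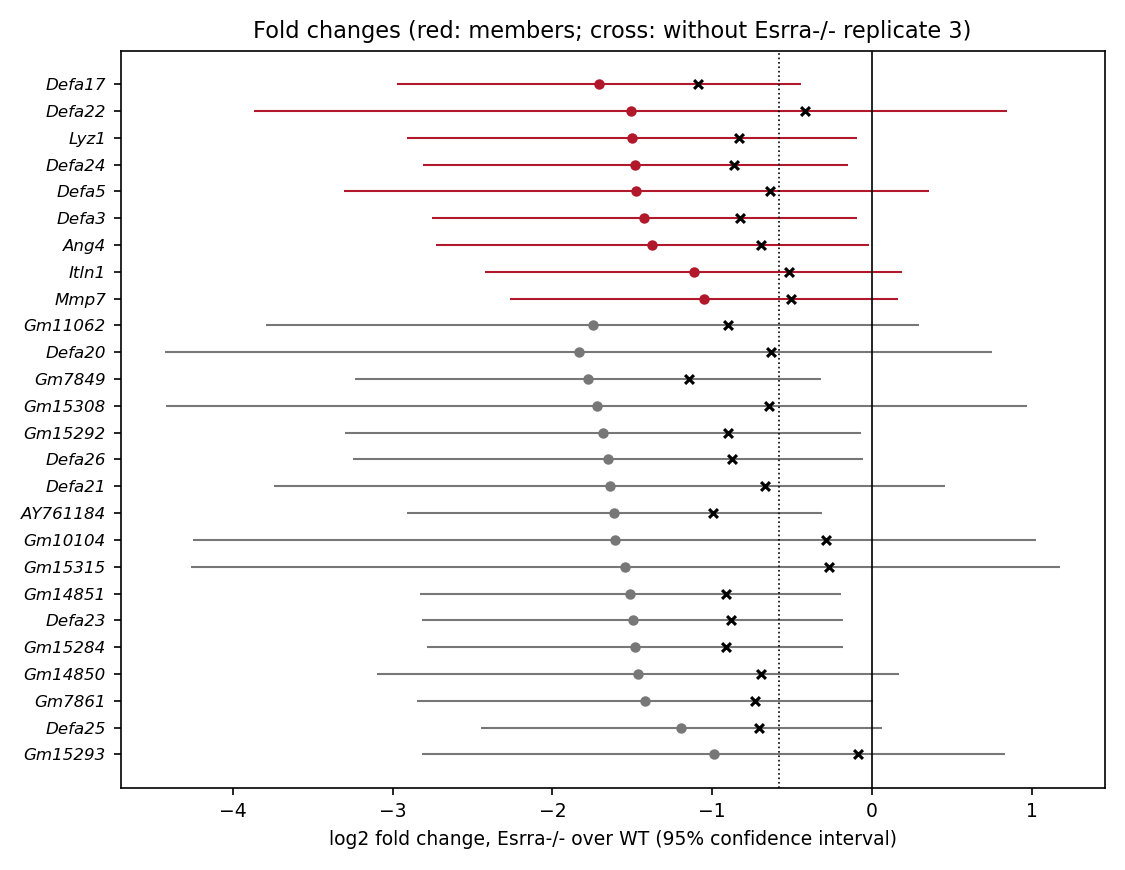
Log2 fold change, Esrra-/- over WT, of the 9 members (red), of Gm11062 and of other alpha-defensin rows tested (grey), with 95% confidence intervals from limma. Crosses give the value without Esrra-/- replicate 3, and the dotted line stands at −0.58. Every cross lies closer to 0 than the point of the same gene, with Defa17 at −1.71 in all libraries and −1.09 without that library.

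Of the 26 alpha-defensin rows, 22 were tested. Defa-rs7, Gm15056 and AY761185 were listed at 0 in all 6 libraries, and Gm15299 was under the filter, with 0.289 to 1.68 FPKM. All 22 had a negative log2 fold change, 11 were called lower and 0 higher, and the median was −1.53. Of all genes tested, 3.28% were called lower. The count called lower was 5 without WT replicate 1, 1 without WT replicate 2 and 2 without Esrra-/- replicate 3. In those fits 3.56%, 2.65% and 3.16% of all genes were called lower. The genotypes did not overlap for 8 of them, all with Esrra-/- below WT. Of all genes tested, 9.14% had every Esrra-/- library below every WT library, and 8.45% had every Esrra-/- library above. Because rows of this cluster share much of their sequence, they are not separate measurements. Summed over the cluster, a measure that depends less on how fragments were divided between its rows than single values do, the level was 35082, 73423 and 29149 FPKM in WT and 17985, 28964 and 5390 FPKM in Esrra-/-. WT replicate 3 and Esrra-/- replicate 2 were nearly level in this sum.

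Outside the members the most abundant alpha-defensin rows in WT were Gm7849, with 4626, 9011 and 4121 FPKM in WT and 1750, 3621 and 670 FPKM in Esrra-/-, and Defa23, with 3769, 6390 and 3428 FPKM in WT and 1861, 3006 and 658 FPKM in Esrra-/-. Both were called lower, at log2 fold changes of −1.78 and −1.50, though neither transcript holds a word of 31 bases of its own. Other rows called lower were Gm14851 (−1.51), AY761184 (−1.61), Gm15284 (−1.48), Defa26 (−1.65) and Gm15292 (−1.68), beside Defa24, Defa17 and Defa3. Defa20 had 1977, 8666 and 1496 FPKM in WT and 1306, 2768 and 156 FPKM in Esrra-/-, and its log2 fold change of −1.84 was not called (limma, adjusted p = 0.584). Gm15308 spanned 29.1 to 1935 FPKM and Gm10104 spanned 0.297 to 19.9 FPKM over the 6 libraries, and neither was called. The rest, Defa21, Defa25, Gm15293, Gm15315, Gm14850 and Gm7861, had log2 fold changes from −1.64 to −0.99 and were not called.

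Relative to Lyz1 in the same library, several members kept a steady level. Defa24 stood at 153%, 156% and 167% of the Lyz1 FPKM in WT and at 160%, 150% and 173% in Esrra-/-. Defa3 stood at 88.0%, 89.3% and 88.9% in WT and at 85.8%, 93.1% and 102% in Esrra-/-. The standard deviation of the log2 ratio to Lyz1 over the 6 libraries was 0.08 for Defa24, 0.09 for Defa3, 0.15 for Ang4 and 0.18 for Defa17. These genes thus moved with Lyz1 across an 11.3-fold range of its level.

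Other rows did not keep step with Lyz1. Defa22 stood at 40.98%, 71.4% and 27.9% of Lyz1 in WT and at 52.1%, 64.6% and 23.9% in Esrra-/-, lowest in both libraries without Y-linked transcripts. Defa5 was also lowest in that pair of libraries, at 28.3%, 31.2% and 16.4% in WT and 28.1%, 27.6% and 19.7% in Esrra-/-. The ratio was lowest in the pair of libraries without Y-linked transcripts for 11 of the 22 alpha-defensin rows and highest in that pair for 4, and the genotypes overlapped for all 22. Itln1 was the 1 member whose ratio did not overlap between genotypes, at 27.7%, 27.0% and 24.1% of Lyz1 in WT and 33.1%, 32.1% and 37.7% in Esrra-/-. Of all other genes tested, 50.8% had a ratio to Lyz1 that was higher in every Esrra-/- library than in every WT library, and 0.00944% had one that was lower in every Esrra-/- library, so a higher ratio without overlap is not particular to Itln1. Mmp7 stood at 3.63%, 2.30% and 2.03% in WT and 3.74%, 2.79% and 4.12% in Esrra-/-.

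**Figure D4:**
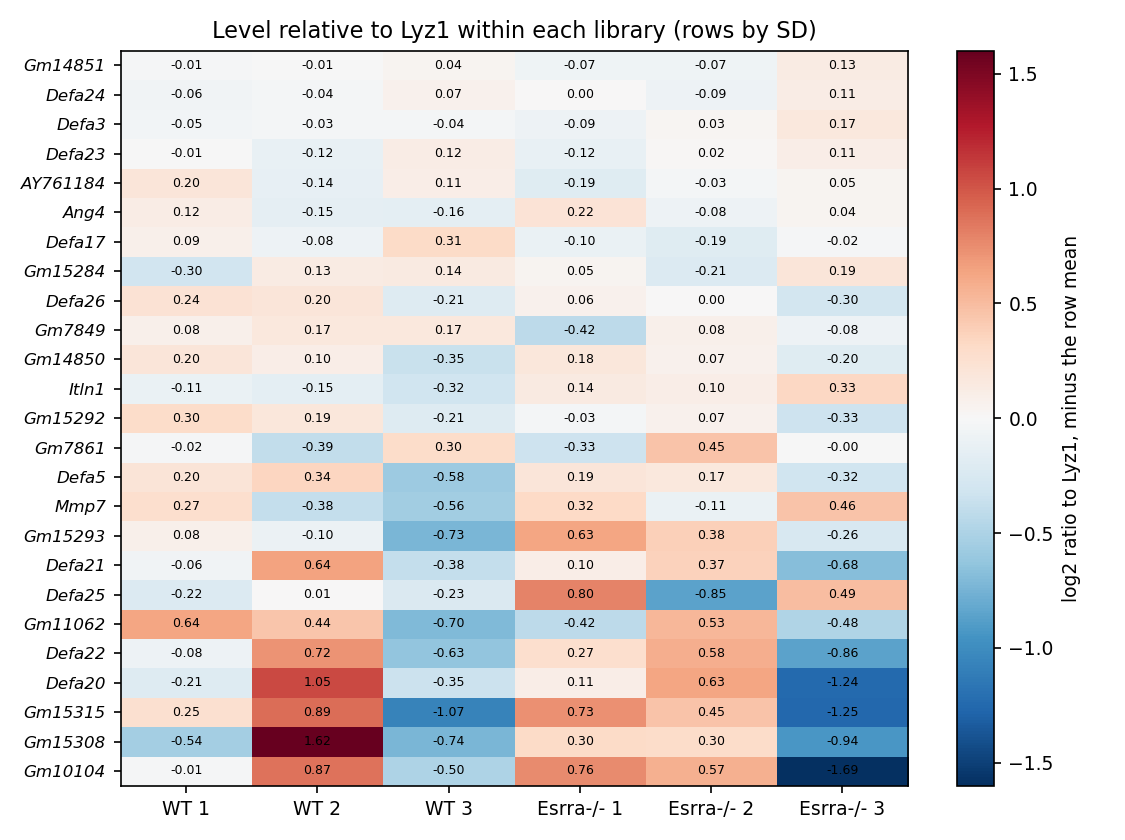
Log2 ratio of each gene's FPKM to that of Lyz1 in the same library, minus the mean of the row, from blue (lower) to red (higher). Rows are ordered by their standard deviation. Defa24 and Defa3 near the top stay within 0.2 of their mean, while Defa22, Defa20 and Gm15308 near the bottom are high in WT replicate 2 and low in the third library of each genotype.

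The sequence before the start of these genes was read from the mm9 genome because the members moved together. Each line gives the 90 bases before the TATAAA that lies nearest the gene start, and TATAAA itself, on the plus strand. Capitals mark TATAAA and ATCAAAG, which is CTTTGAT on the other strand, a word bound by the TCF factors of the Wnt pathway.
Defa24, chr8:22844845-22844940: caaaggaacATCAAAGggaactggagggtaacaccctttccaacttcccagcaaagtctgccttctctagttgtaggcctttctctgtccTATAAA
Defa17, chr8:22766109-22766204: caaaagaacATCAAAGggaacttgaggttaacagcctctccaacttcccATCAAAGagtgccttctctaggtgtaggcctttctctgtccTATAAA
Defa3, chr8:22426958-22427053: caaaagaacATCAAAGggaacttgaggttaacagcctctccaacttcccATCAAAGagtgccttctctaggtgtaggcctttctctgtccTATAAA
Defa5, chr8:22436954-22437049: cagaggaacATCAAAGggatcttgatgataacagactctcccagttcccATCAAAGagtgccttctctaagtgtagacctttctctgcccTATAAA
Defa22, chr8:22301835-22301930: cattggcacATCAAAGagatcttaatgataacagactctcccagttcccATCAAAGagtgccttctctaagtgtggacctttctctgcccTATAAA
Defa17, Defa3, Defa5 and Defa22 held CTTTGAT 81 and 41 bases before TATAAA, and Defa24 held it at 81 bases alone. The windows of Defa17 and Defa3 were identical over 96 bases, and those of Defa24 and Defa22 differed at 22 bases. Over the 300 bases from 250 before to 50 after the annotated gene start, searched on both strands, CTTTGAT was found for 6 of the 9 members (these 5 and Mmp7) and for 19 of the 26 alpha-defensin rows, against 3.47% of 22238 protein-coding genes. In Mmp7 the word began 8 bases after the annotated gene start and after its TATAAA, unlike the words of the 5 alpha-defensins. Copies of 1 cluster share their sequence and are not separate cases. AAGGTCA, the core of the motif of the ESRR receptors, was found for Lyz1 alone among the members and for 0 of the 26 alpha-defensin rows, against 3.94% of all genes, and TCAAGGTCA, which contains it, for 0 members, against 0.36%.

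Relatives of the members had low levels. Of these, Lyz2, Ang and Ang5 are also counted in the list of other genes linked to Paneth cells below. Lyz2, the lysozyme of macrophages, had 1.74, 2.69 and 2.25 FPKM in WT and 1.495, 1.87 and 1.94 FPKM in Esrra-/-, with a log2 fold change of −0.30 that was not called. Ang, another angiogenin, had means of 12.5 FPKM in WT and 11.0 FPKM in Esrra-/- (log2 fold change −0.16). Ang5 had 0.837 to 3.70 FPKM in WT and was listed at 0 in Esrra-/- replicate 3. Its log2 fold change of −1.995, from values near the filter, was not called (limma, adjusted p = 0.509). Ang2 and Ang6 were listed at 0 throughout. Of the matrix metalloproteinases other than Mmp7, Mmp14, Mmp15, Mmp23, Mmp24 and Mmp28 were tested, with log2 fold changes from −0.29 to 0.35 and none called. The row RefSeq pairs with Mptx1, 1810030J14Rik, had 0.929, 4.79 and 9.40 FPKM in WT and 2.49, 1.48 and 1.74 FPKM in Esrra-/-. Its highest library was WT replicate 3, unlike any member. Other intelectins were not analysed here.

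Of 18 other genes tested whose products are linked to Paneth cells, 2 were called lower and 0 higher, with a median log2 fold change of −0.49. The count called lower was 0 without Esrra-/- replicate 3, 1 without WT replicate 2, and 5 without WT replicate 3 or without Esrra-/- replicate 2. Clps, which encodes colipase, had 175, 304 and 170 FPKM in WT and 103, 155 and 43.3 FPKM in Esrra-/-, a log2 fold change of −1.24 (adjusted p = 0.415 from limma). Spink4, a secreted product also found in goblet cells, had 1222 FPKM on average in WT and 725 FPKM in Esrra-/- (log2 fold change −0.78). Cd24a, a surface protein of crypt base cells, had a log2 fold change of −0.56 (limma, adjusted p = 0.289), short of the threshold on size. By mean over all 6 libraries the most abundant gene of this list was Guca2b. Its values were 2038, 2116 and 6033 FPKM in WT and 2692, 1705 and 4680 FPKM in Esrra-/-, and it was not called. Reg3b, the most abundant by WT mean, encodes an antimicrobial lectin that enterocytes make too. It had 5400.2, 4612 and 257 FPKM in WT and 2762, 1727 and 2648 FPKM in Esrra-/-, so its lowest library was WT replicate 3 and not the lowest library of the members.

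Genes for the formation of Paneth cells and their granules had few calls. Of 24 tested, 1 was called lower and 0 higher, and their median log2 fold change was −0.05. Kcne3, a potassium channel subunit, was the gene called, with 30.4, 29.9 and 29.8 FPKM in WT and 19.0, 23.5 and 12.9 FPKM in Esrra-/-. This list had 0 genes called lower without Esrra-/- replicate 3, 2 without Esrra-/- replicate 1, and 3 without WT replicate 3 or without Esrra-/- replicate 2. Tcf7l2, a TCF factor, had a log2 fold change of 0.37, Kcnn4, a potassium channel, one of −0.48, and Ctnnb1, which encodes beta-catenin, one of 0.23. Many genes of this list are used by other epithelial cells too.

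Part of the crypt genes had the same libraries at both ends as the members. WT replicate 2 was the highest and Esrra-/- replicate 3 the lowest library for 8 of 14 stem cell genes and for 15 of 27 cell division genes tested, where this held for 7.05% of all genes tested. Of the 14 stem cell genes, Smoc2 and Cdca7 were called lower and 0 genes higher, with a median log2 fold change of −0.65, and of the 27 cell division genes 6 were called lower and 1 higher (Prc1; 0 without Esrra-/- replicate 1), with a median of −0.55. The count of cell division genes called lower was 3 without WT replicate 2, 3 without Esrra-/- replicate 3, 15 without WT replicate 3 and 20 without Esrra-/- replicate 2, and 1 with WT replicate 2 and Esrra-/- replicate 3 both left out. That of stem cell genes was 5 without Esrra-/- replicate 2 and 1 with that pair left out. With the Y-linked transcripts as a covariate 7 stem cell and 10 cell division genes were called lower, against 3.9% of all genes. With the replicate number as a block the counts were 6 and 10, against 4.16% of all genes. The summed FPKM of the stem cell list was 237 to 334 in WT and 121 to 242 in Esrra-/-, and that of the cell division list was 368 to 445 in WT and 253 to 347 in Esrra-/-, with no gene of either list at 0 in all libraries. The stem cell list was highest in WT replicate 2 and lowest in Esrra-/- replicate 3 in this sum, as was the cell division list. In WT replicate 2 Olfm4 made up 205 of the 334 FPKM of the stem cell sum. Smoc2 had 11.1 FPKM on average in WT and 6.20 FPKM in Esrra-/- (log2 fold change −0.84, adjusted p = 0.247 in limma), and Olfm4, the most abundant gene of the stem cell list, had 167, 205 and 104 FPKM in WT and 94.7, 149 and 36.1 FPKM in Esrra-/- without being called. Ascl2 had a log2 fold change of −0.67 and was not called, and Pbk and Rrm2, for cell division, had −0.80 and −0.87 and were called. The part of the crypt share of each library in the values of the members was not tested.

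Villus enterocyte genes ran the other way between libraries. Their summed FPKM was 53806 to 87873 in WT and 65098 to 90926 in Esrra-/-, lowest in WT replicate 2 and highest in Esrra-/- replicate 3. As a share of the summed FPKM of each library, the measure used for the members, WT replicate 2 was again lowest, at 6.57%. On that measure Esrra-/- replicate 1 was highest, at 10.8%, and Esrra-/- replicate 3 stood at 10.1%. Of 18 tested, 0 were called in either direction in limma (0 had an unadjusted p under 0.05), with a median log2 fold change of 0.21. The most abundant, Apoa4, had log2 fold change 0.42, and Apob and Mttp had 0.33 and 0.34. In this list 1 gene was called higher without WT replicate 3 and 1 without Esrra-/- replicate 2. Of 16 goblet cell genes 2 were called lower (Ccl9 and Spink4) and 1 higher (Klk1, log2 fold change 0.79, named after its values were seen), with a median of −0.03. The goblet cell count called lower was 0 without WT replicate 2 or without Esrra-/- replicate 3, 1 without WT replicate 1 or without Esrra-/- replicate 1, and 4 without Esrra-/- replicate 2, and the count called higher was 0 without WT replicate 1, without Esrra-/- replicate 2 or 3, and under quantile normalization. Zg16, the most abundant of them, had a log2 fold change of 0.21, and Tpsg1 had one of −0.58, just short of a call. Enteroendocrine genes (17 tested, median −0.06) and tuft cell genes (8 tested, median −0.01) had 0 calls in limma (0 with an unadjusted p under 0.05), among them Neurog3 (−0.53), Scg3 (−0.50), Tac1 (−0.47) and Gip (−0.24), and Alox5ap (−0.47), Rgs13 (−0.24), Trpm5 (−0.17) and Ltc4s (0.12). With 1 library left out, 1 enteroendocrine gene was called lower without WT replicate 1 and 1 without Esrra-/- replicate 2, and 1 tuft cell gene without WT replicate 2.

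**Figure D5:**
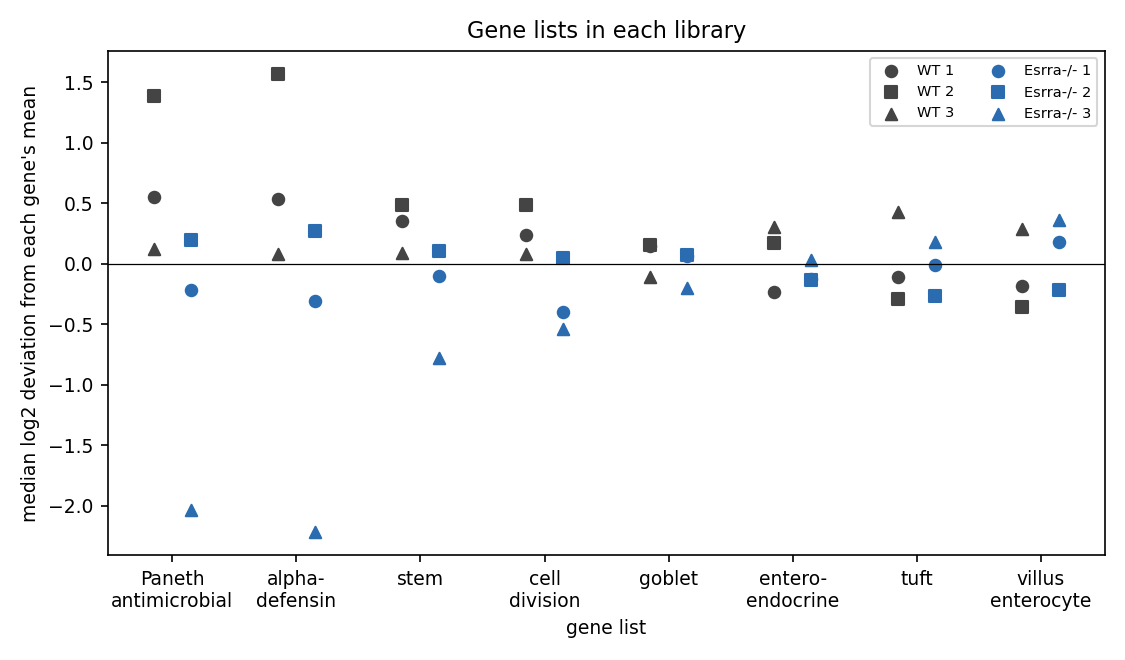
Median deviation of the genes of each list from their own means over the 6 libraries, on the log2 scale, with 1 point per library. The members reach 1.38 in WT replicate 2 and −2.04 in Esrra-/- replicate 3, the stem cell list 0.48 and −0.78 in the same libraries, and the villus enterocyte list −0.36 and 0.36.

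Markers of cells from outside the epithelium were summed in the same way. Pancreatic acinar genes, which could come from tissue beside the duodenum, summed to 19.4 to 38.6 FPKM in WT and 16.4 to 29.2 FPKM in Esrra-/-, with 10 of 19 at 0 in all libraries, among them Cpa1, Cela2a, Prss1, Pnlip and Amy2a5. Of this list Rnase1 (log2 fold change −0.43), Cela1 (0.25) and Ctrl (0.08) were tested. Myeloid genes summed to 15.2 to 19.0 FPKM in WT and 15.9 to 18.5 FPKM in Esrra-/-, among them Itgam (0.42) and Cd68 (−0.18), and mesenchymal genes to 6.62 to 8.72 FPKM and 6.94 to 12.3 FPKM, among them Tagln (0.28) and Vim (−0.27). Lymphocyte genes, led by Gzma, summed to 160 to 276 FPKM in WT and 125 to 318 FPKM in Esrra-/-. Gzma (0.11), Gzmb (0.46), Cd8a (0.25) and Igj (0.66) were not called, nor was any other gene of these 4 lists in limma (1 had an unadjusted p under 0.05, Itgam). With 1 library left out, 1 myeloid gene was called lower without WT replicate 2 and 1 lymphocyte gene without Esrra-/- replicate 2.

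The genes most like the members in profile over the 6 libraries were named by the root mean square distance from the mean log2 profile of the members, each gene centred on its own mean. Lyz1 (0.10) and Ang4 (0.11) were the closest of all genes tested, where the median distance was 1.12. The mean profile holds the members themselves, so their own closeness is partly built in. Measured from the mean of the other 8 members, the distance was 0.11 for Lyz1, 0.12 for Ang4, 0.37 for Mmp7 and 0.60 for Defa22. The 20 closest genes held 7 members, 13 alpha-defensin rows including 4 of those members, and 4 genes that were neither: Clps (0.26), Lgr5 (0.31), Olfm4 (0.32) and Tmed6 (0.32). Habp2 (0.35) was the fifth. Lgr5, the receptor that marks crypt stem cells, had 1.27, 1.93 and 0.940 FPKM in WT and 0.876, 0.974 and 0.247 FPKM in Esrra-/-, with WT replicate 2 the highest and Esrra-/- replicate 3 the lowest, and was not called (limma, adjusted p = 0.537). Tmed6, a protein of the secretory pathway, had 5.12, 9.37 and 4.66 FPKM in WT and 2.73, 4.69 and 1.39 FPKM in Esrra-/-, and was called lower with the genotypes just overlapping. The log2 fold change of Habp2 was −0.83 and was not called.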

How the data were processed

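Libraries of duodenal epithelial RNA (3 WT, 3 Esrra-/- mice) were made with an Illumina TruSeq kit, which does not mark strand. Per the submitters' processing notes, the authors used FastQC 0.11.3, kallisto 2.1.0 and DESeq2 2.2.1 with mm9. The authors deposited FPKM values for 22611 genes in 6 libraries and a table of their own comparison (fold changes and p-values), which was not used. FPKM do not give the number of fragments. The commonest ratio of values under 0.2 FPKM to those of WT replicate 1 was 0.976 to 1.21, which measures the scaling of the libraries and not their depth, so precision is given by the spread between mice.

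Rows whose mean exceeded 1 FPKM were tested with limma 3.58.1 (R 4.3.3; lmFit, eBayes with a trend) on log2(FPKM + 0.1), with Benjamini-Hochberg adjustment over all 10596 genes, and called where the unadjusted p was under 0.05 and the log2 fold change lay beyond ±0.58. No count test was run, because the values are FPKM. The log2(FPKM + 0.1) scale understates the change of low genes. The procedure was tested on simulated data. Alternatives were other filters, pseudocounts and scalings, no trend, a replicate block, a Y-linked covariate and left-out libraries.

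Sequences and positions came from NCBIM37 and GENCODE M1 with Biopython 1.88. The members and lists were chosen with earlier results of these data known. Named genes were all members and alpha-defensin rows, Esrra, the 3 smallest p and the most abundant gene of each list, the 5 closest profiles, and relatives of Lyz1, Mptx2, Ang4, Itln1 and Mmp7. Some genes that this rule names are not reported here, though the counts include them.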

Additional observations from a re-analysis of the deposited data

How the results depend on the processing

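Of the 144 log2 fold changes of members under 16 alternatives, 101 kept their direction and their side of the thresholds, 27 were no longer called, 15 became called and 1 changed sign. Defa17 was called under all 16. The count of members called lower, 5 as reported, was 1 with no filter on low values, 1 under quantile normalization, 1 with WT replicate 2 and Esrra-/- replicate 3 both left out, 9 with the Y-linked covariate and 0 at an adjusted p under 0.05, and 1 to 8 with 1 library left out. The count of 11 alpha-defensin rows became 6, 2, 1, 21 and 0 under those alternatives in the same order, and 1 to 16 with 1 library left out. Over all genes, 528 were called lower (2.99% of 17679 tested) and 277 higher with no filter. Under quantile normalization 324 genes (3.06%) were called lower. At an adjusted p under 0.05, 2 were called lower and 2 higher, and with 1 library left out 252 to 533 were called lower. With WT replicate 2 and Esrra-/- replicate 3 both left out the log2 fold change was 0.28 for Defa22, 0.15 for Defa20, 0.32 for Gm15293, 0.44 for Gm15308, 0.50 for Gm15315 and 0.41 for Gm10104, where all were negative before. The cause was not tested.

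With the replicate number as a block, 9 members and 22 alpha-defensin rows were called lower, against 4.16% of all genes. The deviations of same-numbered libraries from their group means had correlations across genes of 0.01, 0.26 and 0.38 for replicates 1 to 3. WT replicates 2 and 3 correlated best with the Esrra-/- library of the same number, and WT replicate 1 with Esrra-/- replicate 2 (0.18). These values do not settle whether the numbers pair the samples, so the block is given as a hint from the data alone. The number of fragments behind each value is unknown, so counting error cannot be separated from the spread between libraries.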
